A study of Mus musculus with 13 samples.

Results

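Transcripts of 10 autophagy genes were followed in the liver of mice with streptozotocin-induced diabetes. The genes were chosen by name and by role in the pathway, with earlier results of these data known. All 10 were measured among the 19938 named genes of the array. A gene with more than 1 probe set is represented by the brightest on average across the 13 arrays. Liver RNA came from 6 mice given streptozotocin (STZ) and 7 control mice, with 1 Affymetrix mouse gene array for each animal. All were wild-type males of strain C57BL/6N, 5 to 6 months old, housed under specific-pathogen-free conditions. STZ, a DNA-alkylating glucose analogue toxic to pancreatic beta cells, which make insulin, was injected into the peritoneum on 5 days in a row at 65 mg/kg, when the mice were 10 to 16 weeks old. Controls received citrate buffer without the drug (the design text names a standard diet instead), and all livers were collected 9 to 11 weeks after the treatment. An action of STZ on the liver itself and the loss of insulin cannot be told apart in these groups.

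Autophagy is the process by which a cell encloses its own cytoplasm, organelles or protein aggregates in a double membrane, the autophagosome, and delivers them to the lysosome for breakdown. A kinase complex around ULK1 starts it, a lipid kinase complex around Beclin 1 marks the membrane, and ubiquitin-like enzymes such as ATG7 attach proteins of the ATG8 family (LC3 and GABARAP) to it, where they bind cargo receptors. In liver it supplies amino acids and lipids during fasting, and insulin restrains it through the kinase complex mTORC1 and through FoxO transcription factors. Much of this control acts on proteins, by phosphorylation and by turnover of the ATG8 proteins and their cargo, so transcript levels are only 1 layer of it.

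Among the 10 genes, 1 was higher and 1 was lower in STZ livers. Sqstm1, which encodes the cargo receptor p62, was 1.18-fold higher in STZ livers, a log2 difference of 0.24 with a standard error of 0.058, and Map1lc3a, which encodes the ATG8 protein LC3A, was 1.29-fold lower (-0.37 ± 0.077, where ± gives the standard error for every difference). The other 8 did not pass the test, with differences between -0.23 for Ulk1 and 0.037 for Map1lc3b. The test was limma's moderated test over all named genes with Benjamini-Hochberg adjustment and a threshold of 0.05. By that rule 5.09% of all named genes were higher and 4.04% lower in STZ livers, 9.12% in either direction. All 10 genes lie among the 9969 brighter than the median gene, of which 1857 passed when these were fitted alone. Sqstm1 and Map1lc3a were called there too. The median difference of the 10 genes was -0.046, beside -0.0063 over all named genes. All values are log2 intensities after robust multi-array averaging, which fixes the overall distribution of each array, so a change in total RNA per cell would not appear. In whole liver, fewer cells of a type and less RNA per cell cannot be told apart.

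**Figure D1:**
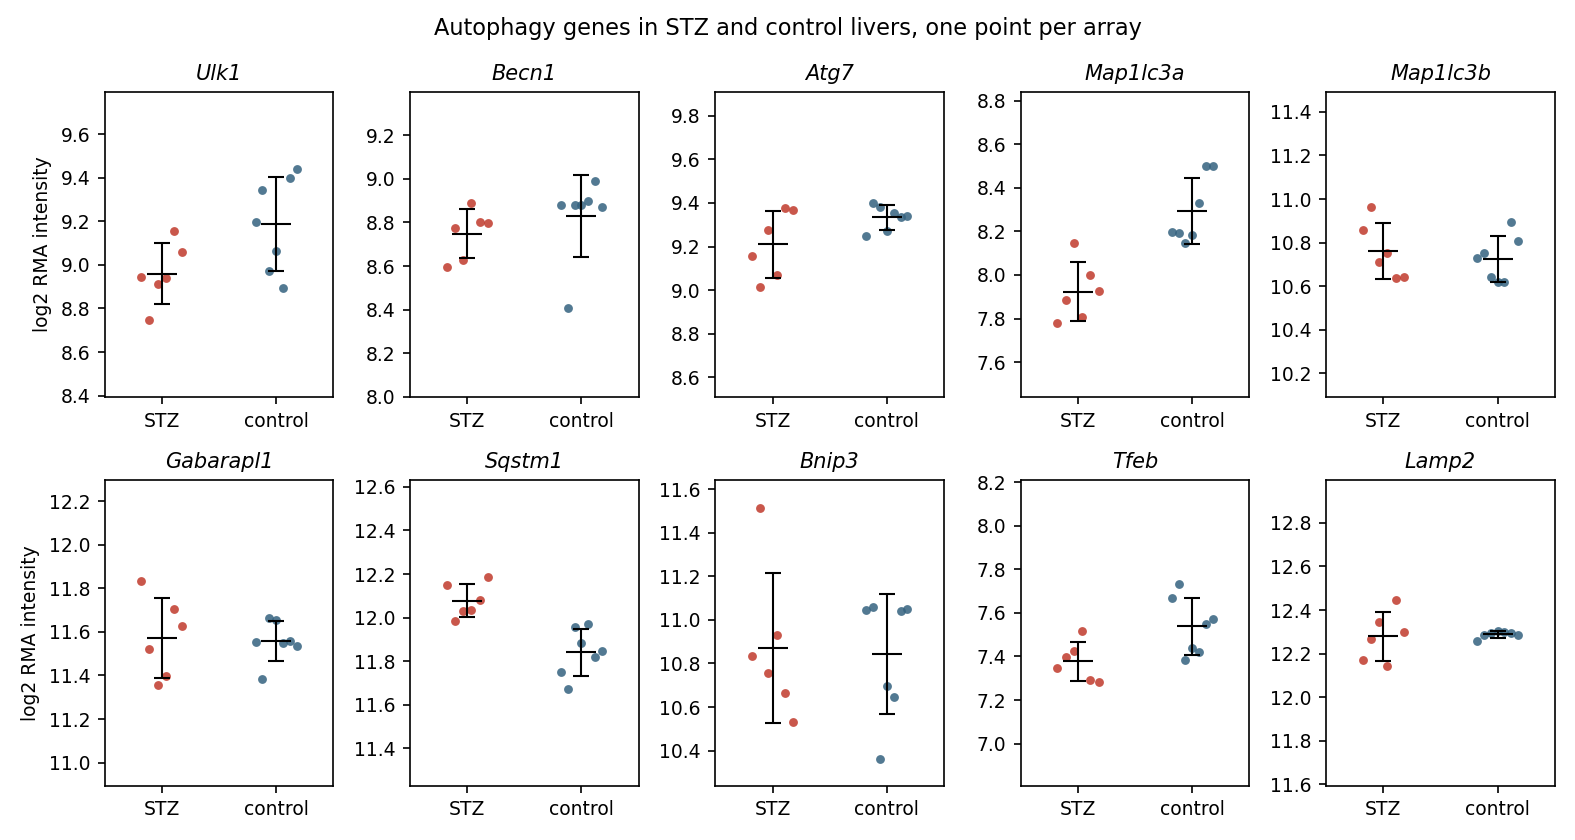
Log2 RMA intensity of the 10 autophagy genes in STZ livers (red, 6 arrays) and control livers (blue, 7 arrays), ordered by role, with bars for the mean and SD. Every panel spans the same log2 range, and Sqstm1 is the panel in which the groups do not overlap.

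The regulatory sequence upstream of Sqstm1 is shown because Sqstm1 was the gene of the set that rose. It is the RefSeq promoter window of GRCm38.p6, 250 bases before and 50 bases from the transcription start, at chr11:50210771-50211070 on the minus strand, and the start base is in capitals. Promoter windows were found for 8 of the 10 genes, 10 windows in all, since Tfeb has several starts. Map1lc3a and Becn1 were not matched.
Sqstm1: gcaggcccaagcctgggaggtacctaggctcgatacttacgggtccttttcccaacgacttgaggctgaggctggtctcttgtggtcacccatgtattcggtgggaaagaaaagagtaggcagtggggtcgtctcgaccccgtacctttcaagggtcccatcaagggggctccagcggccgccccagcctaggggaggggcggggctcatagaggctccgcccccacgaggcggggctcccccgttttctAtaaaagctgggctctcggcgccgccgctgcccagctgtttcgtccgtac

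On both strands, 4 motifs were searched. The E-box CACGTG, a core bound by TFEB and by other helix-loop-helix factors, stood in 2 of the 10 windows and in 7.15% of all 32851 windows of the same length. It is shown in capitals in 30 bases of each of the 2 windows, the first on the plus strand at chr6:114670952-114670981 and the second on the minus strand at chr7:138909597-138909626.
Atg7: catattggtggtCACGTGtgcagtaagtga
Bnip3: gcgcacgcgccgCACGTGccacacgctccc

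The longer core TCACGTGA of the lysosomal gene network, which contains the E-box, was in 0 of the 10 windows and in 0.974% of all windows. The FoxO motif GTAAACA was in 0 of 10 and in 3.65%. The antioxidant response core TGACNNNGC, bound by NRF2, was in 1 of 10, that of Map1lc3b, and in 12.4%. None of the 4 was in the Sqstm1 window shown above. These are matches of letters in short windows and say nothing about binding.

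Neither Ulk1 nor Becn1, the members of the set that act when autophagy starts, passed the test. Ulk1 encodes the kinase that mTORC1 inhibits and that triggers formation of the autophagosome. Its log2 intensity was 8.75, 8.94 and 9.16 (lowest, median and highest) in STZ livers, against 8.89, 9.20 and 9.44 in control livers. Only STZ replicate 2 lay below every control. The difference was -0.23 ± 0.093, with an adjusted p of 0.160 in limma and an unadjusted p of 0.0530 in an exact 2-sided permutation test. Becn1 encodes Beclin 1, the scaffold of the lipid kinase complex, and averaged 8.75 ± 0.11 (SD, n = 6) in STZ livers and 8.83 ± 0.19 (SD, n = 7) in control livers. Every STZ liver lay within the control range, and the difference was -0.083 ± 0.082 (adjusted p = 0.654, limma). Control replicate 2 had the lowest Becn1 value of all 13 arrays, 8.41, while the other 6 controls lay between 8.87 and 8.99. Of the STZ livers, only replicate 4 (8.888) reached the range of those 6 controls. Without control replicate 2 the difference was -0.15 (adjusted p = 0.124, limma).

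Atg7 encodes the activating enzyme of both ubiquitin-like reactions of the pathway. Its values were 9.02, 9.22 and 9.38 (lowest, median and highest) in STZ livers and 9.25, 9.34 and 9.40 in control livers. STZ replicates 1, 2 and 4 lay below every control and the other 3 lay within the control range. The SD was 0.15 in STZ livers and 0.056 in control livers, and the difference of -0.12 ± 0.064 did not pass (adjusted p = 0.294, limma). The sample labels number the controls 1 to 7 and the STZ livers 29 to 32, 40 and 42, so label number and treatment cannot be told apart. When only the 4 STZ arrays with consecutive label numbers (29 to 32, without STZ replicates 5 and 6) were compared with the controls, the Atg7 difference was -0.20 with an adjusted p of 0.0476 in limma.

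The 3 ATG8 genes did not share a direction that passed the test. Map1lc3a was 7.778, 7.9065 and 8.149 (lowest, median and highest) in STZ livers, against 8.145, 8.195 and 8.501 in control livers. STZ replicates 1, 2, 4, 5 and 6 lay below every control, and STZ replicate 3 lay within the control range, just above its lowest member. The means were 7.92 ± 0.14 (SD, n = 6) in STZ livers and 8.29 ± 0.15 (SD, n = 7) in control livers. The difference of -0.37 had a 95% interval of -0.53 to -0.21, an adjusted p of 0.00562 in limma and an unadjusted p of 0.00117 in the exact permutation test. Leaving out any 1 array kept it between -0.41 and -0.33, with adjusted p values of 0.00232 to 0.0166 in limma.

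Map1lc3b encodes LC3B, the ATG8 protein most often used to follow autophagosomes, and lay at 10.64 to 10.96 in STZ livers and at 10.62 to 10.90 in control livers. Its difference was 0.037 ± 0.066 (adjusted p = 0.835, limma), with a 95% interval of -0.10 to 0.18. Gabarapl1 encodes a GABARAP-type ATG8 protein and is known as a FoxO target in muscle and liver cells. It lay at 11.36 to 11.83 in STZ livers, on both sides of the control range of 11.38 to 11.66, and its difference was 0.017 ± 0.075 (adjusted p = 0.944, limma, 95% interval -0.14 to 0.18). The interval of Map1lc3a lies wholly below those of Map1lc3b and Gabarapl1, but the differences between the genes were not tested against each other.

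**Figure D2:**
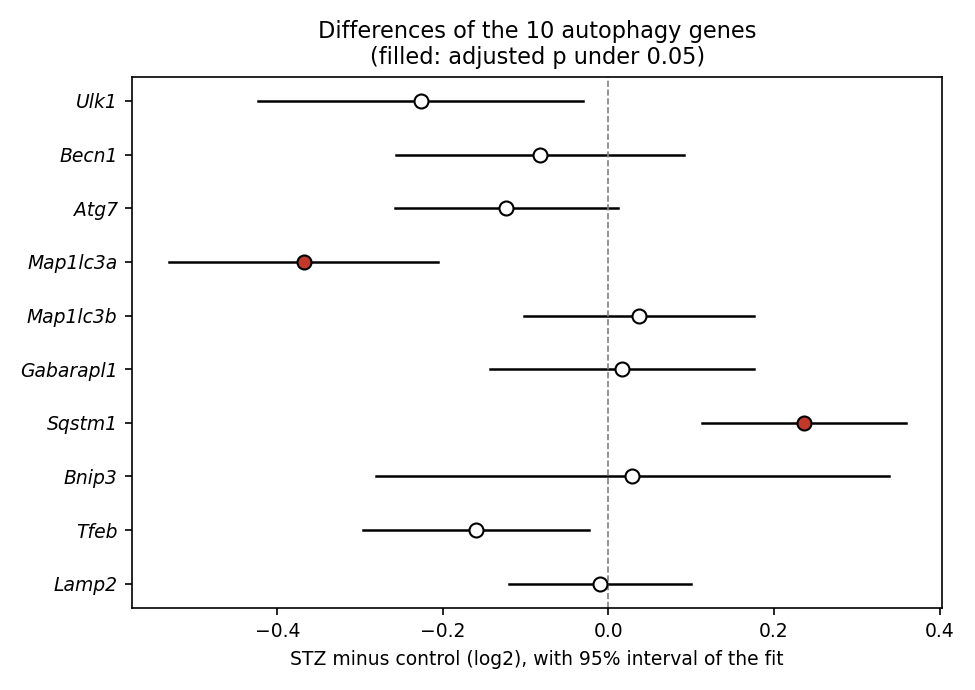
STZ minus control difference (log2, x axis) of each of the 10 autophagy genes, with the 95% interval of the limma fit, and filled circles for an adjusted p under 0.05. Map1lc3a (-0.37) and Sqstm1 (0.24) are filled, and the intervals of Ulk1 and Tfeb exclude 0 although their adjusted p values of 0.160 and 0.154 did not pass.

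Among the receptors, Sqstm1 was 11.985, 12.06 and 12.19 (lowest, median and highest) in STZ livers, against 11.67, 11.845 and 11.971 in control livers. The lowest STZ liver lay just above the highest control, so the groups did not overlap, which held for 3.86% of all named genes. The means were 12.08 ± 0.077 (SD, n = 6) in STZ livers and 11.84 ± 0.11 (SD, n = 7) in control livers. The difference had a 95% interval of 0.11 to 0.36, an adjusted p of 0.0159 in limma and an unadjusted p of 0.00175 in the exact permutation test. p62 binds ubiquitinated cargo and LC3, is itself degraded by autophagy, and its gene is also a target of the oxidative stress factor NRF2. The call was lost with the 4 STZ arrays of consecutive label numbers alone (0.21, adjusted p = 0.0645, limma), and leaving out any 1 array kept it at 0.21 to 0.26 with adjusted p values of 0.0131 to 0.0418.

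Bnip3 encodes a mitochondrial outer membrane receptor that binds LC3 and is induced by low oxygen and by FoxO3 in other tissues. It had the widest spread of the 10 genes within both groups, with values of 10.53, 10.79 and 11.52 (lowest, median and highest) in STZ livers and 10.36, 11.04 and 11.06 in control livers. STZ replicate 2 was the highest of the 13 arrays and control replicate 3 the lowest. The difference was 0.029 ± 0.15 (adjusted p = 0.950, limma), and its 95% interval of -0.28 to 0.34 is wider than those of the other 9 genes.

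Bnip3 and Map1lc3b each have 2 probe sets that the platform annotation assigns to no other gene. The chosen one lies, in the numbering of the array, among probe sets whose 10 nearest neighbours with a known chromosome are all on chromosome 14, whereas Bnip3 is on chromosome 7 and Map1lc3b on chromosome 8. The other probe set of each gene lies among 10 neighbours on the gene's own chromosome. What the chosen probe sets match in the genome was not analysed here. With the other probe set the difference was 0.076 ± 0.15 for Bnip3 and 0.044 ± 0.062 for Map1lc3b, and neither passed (adjusted p = 0.850 and 0.777, limma), as with the chosen ones.

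**Figure D3:**
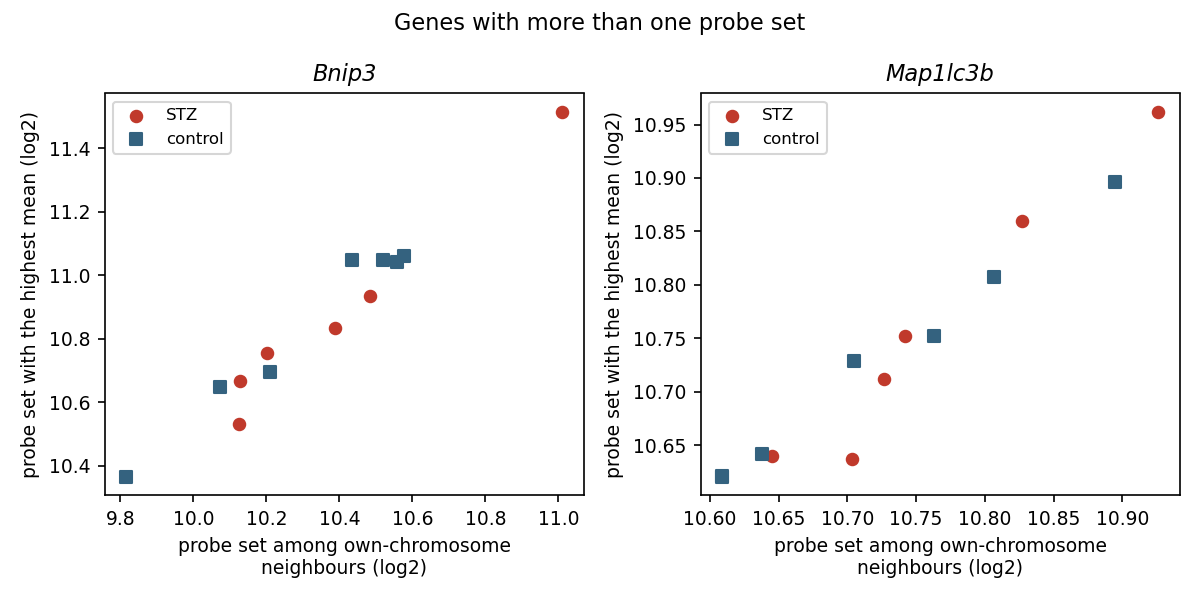
Log2 RMA intensity of the 2 probe sets of Bnip3 and of Map1lc3b in STZ livers (circles, 6 arrays) and control livers (squares, 7 arrays), with the chosen probe set on the y axis. Arrays high in one probe set were high in the other, with Bnip3 in STZ replicate 2 at the top in both.

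Tfeb encodes the transcription factor that switches on lysosomal and autophagy genes when mTORC1 is inactive. Its values were 7.28, 7.37 and 7.52 (lowest, median and highest) in STZ livers and 7.38, 7.55 and 7.73 in control livers. STZ replicates 1, 5 and 6 lay below every control. The difference of -0.16 ± 0.065 did not pass over all genes (adjusted p = 0.154, limma), while the unadjusted p of the exact permutation test was 0.0309.

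Lamp2 encodes a lysosomal membrane glycoprotein needed for fusion of autophagosomes with lysosomes, and the array value does not separate its splice forms. Its means were nearly equal, 12.28 ± 0.11 (SD, n = 6) in STZ livers and 12.29 ± 0.015 (SD, n = 7) in control livers, with a difference of -0.010 ± 0.052 (adjusted p = 0.951, limma). The STZ livers ranged from 12.14 to 12.45 and the controls from 12.26 to 12.31. STZ replicates 1 and 4 lay below every control and STZ replicates 3 and 5 above every control. The SD was thus 7.43 times as large in STZ livers as in control livers, a ratio that was 2.75 for Atg7, 1.99 for Gabarapl1 and between 0.591 and 1.24 for the other 7 genes. The difference in spread was not tested. Over all named genes, STZ arrays were less alike than control arrays. The mean correlation of an array with the others of its group was 0.990 to 0.993 in STZ livers and 0.994 to 0.996 in control livers.

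Genes whose variation within the groups was most like that of the 2 called genes were sought over the 13 arrays, by Pearson's r of the deviations from the group means among 19938 genes. For Sqstm1 they were Itsn1 (r = 0.93), Caprin1 (0.93) and Ube2v2 (0.90), and for Map1lc3a they were Slc35b2, Yaf2 and Ubp1 (0.87, 0.87 and 0.86). None of these 6 genes differed between the groups past the threshold (adjusted p of 0.103 to 0.982, limma). These are the top values of many and are given as a description of likeness only.

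A further 128 genes of autophagy and the lysosome, grouped by role, gave the surroundings of the 10, and 121 of them were measured. These lists and the marker lists below were, like the 10, chosen with earlier results of these data known. Of the 121, 14 were higher and 6 were lower in STZ livers (16.5% in either direction, beside 9.12% of all named genes). Their median difference was 0.018. Most of the 121 are brighter than the median gene, and of the 9969 such genes 1857 passed when these were fitted alone. Of the 14 that were higher in the fit over all genes, 7 were on the list of lysosomal hydrolases, Psap, which does not encode a hydrolase, among them. Without STZ replicate 5 the number of lower genes was 11.

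In the initiation complex, 1 of 4 genes passed. Ulk2, the close relative of Ulk1 that can act in its place, fell by 0.71 ± 0.13 (adjusted p = 0.00203, limma). Its values were 7.79, 8.29 and 8.86 (lowest, median and highest) in STZ livers and 8.92, 9.03 and 9.08 in control livers, with no overlap. STZ replicate 5 was nearest to the controls. The difference of all 4 genes of the complex was negative, with a median of -0.17.

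In the lipid kinase complex and its inhibitors, 1 of 9 genes passed. It was Bcl2l1, which encodes the survival protein BCL-XL that binds Beclin 1, and which was higher by 0.29 ± 0.075 (adjusted p = 0.0215, limma). Of 10 genes of membrane supply, Tmem41b, a lipid scramblase of the endoplasmic reticulum needed for autophagosome formation, was lower by 0.38 ± 0.073 (adjusted p = 0.00332), with all 6 STZ livers below all 7 controls. With the mean of all its probe sets, the Tmem41b difference was smaller, -0.26 (adjusted p = 0.00713, limma). The difference was above 0 for 1 of the 10 membrane supply genes, Vmp1 (0.11 ± 0.055), and the median of the 10 was -0.14.

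None of the 10 conjugation enzymes and ATG4 proteases passed in limma or in the rank-sum test, and 2 had an unadjusted p under 0.05. Atg16l2 had the smallest p (-0.24 ± 0.086, adjusted p = 0.102), which passed without STZ replicate 5 (-0.29, 0.0293). Neither of the other 2 ATG8 genes passed in either test, and neither had an unadjusted p under 0.05. Gabarapl2, the one with the smaller p, was -0.11 ± 0.056 (adjusted p = 0.295, limma).

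Of 11 measured cargo and organelle receptors, 1 was higher and 2 were lower (27.3%, beside 9.12% of all named genes). Retreg1, a receptor for autophagy of the endoplasmic reticulum also known as Fam134b, rose by 0.66 ± 0.095 (1.58-fold, adjusted p = 0.000330, limma). Its values were 9.21, 9.47 and 9.85 (lowest, median and highest) in STZ livers and 8.73, 8.83 and 8.95 in control livers, so every STZ liver exceeded every control. Stbd1, which anchors glycogen to membranes for its delivery to lysosomes, fell by 0.36 ± 0.081 (adjusted p = 0.00953), with 5 of 6 STZ livers below all controls, but did not pass in the exact rank-sum test (adjusted p = 0.0628). Calcoco1, a receptor for the endoplasmic reticulum and Golgi, fell by 0.20 ± 0.057 (adjusted p = 0.0334), which no longer passed when any of 6 arrays was left out (STZ replicates 4 and 6 and control replicates 1, 2, 6 and 7). It was also lost with quantile normalization (-0.20, adjusted p = 0.0572) and with the STZ arrays of consecutive label numbers (-0.21, adjusted p = 0.0787). Among 13 fusion genes, the SNARE gene Vamp8 was higher (0.18 ± 0.047, adjusted p = 0.0222) and the tethering subunit Vps41 lower (-0.25 ± 0.065, adjusted p = 0.0223), and both calls were lost without STZ replicate 4 (0.17 and -0.22, adjusted p = 0.0527 and 0.0581). Vps41 did not pass in the exact rank-sum test either (adjusted p = 0.0628).

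None of the other 6 transcription regulators passed in limma or in the rank-sum test, and 1 had an unadjusted p under 0.05. That was Foxo3, which drives autophagy genes when insulin is low (-0.21 ± 0.070, adjusted p = 0.0828, limma, and 0.0476 without control replicate 3). Of 18 genes of mTORC1 and its regulators, 2 were higher and 1 was lower (16.7%, beside 9.12% of all named genes). Sesn2 encodes a leucine sensor that holds mTORC1 inactive and is induced by p53 and by stress pathways, and it rose by 0.89 ± 0.081 (1.86-fold, adjusted p = 3.90e-06, limma). Its values were 7.46, 7.68 and 7.98 (lowest, median and highest) in STZ livers and 6.63, 6.79 and 6.89 in control livers. Ddit4, another stress-induced inhibitor of mTORC1, rose by 0.49 ± 0.099 (adjusted p = 0.00464), and Deptor, an inhibitory subunit of mTOR complexes, fell by 0.25 ± 0.060 (adjusted p = 0.0155). Ddit4 did not pass in the exact rank-sum test (adjusted p = 0.0628), in which Sesn2 and Deptor did.

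**Figure D4:**
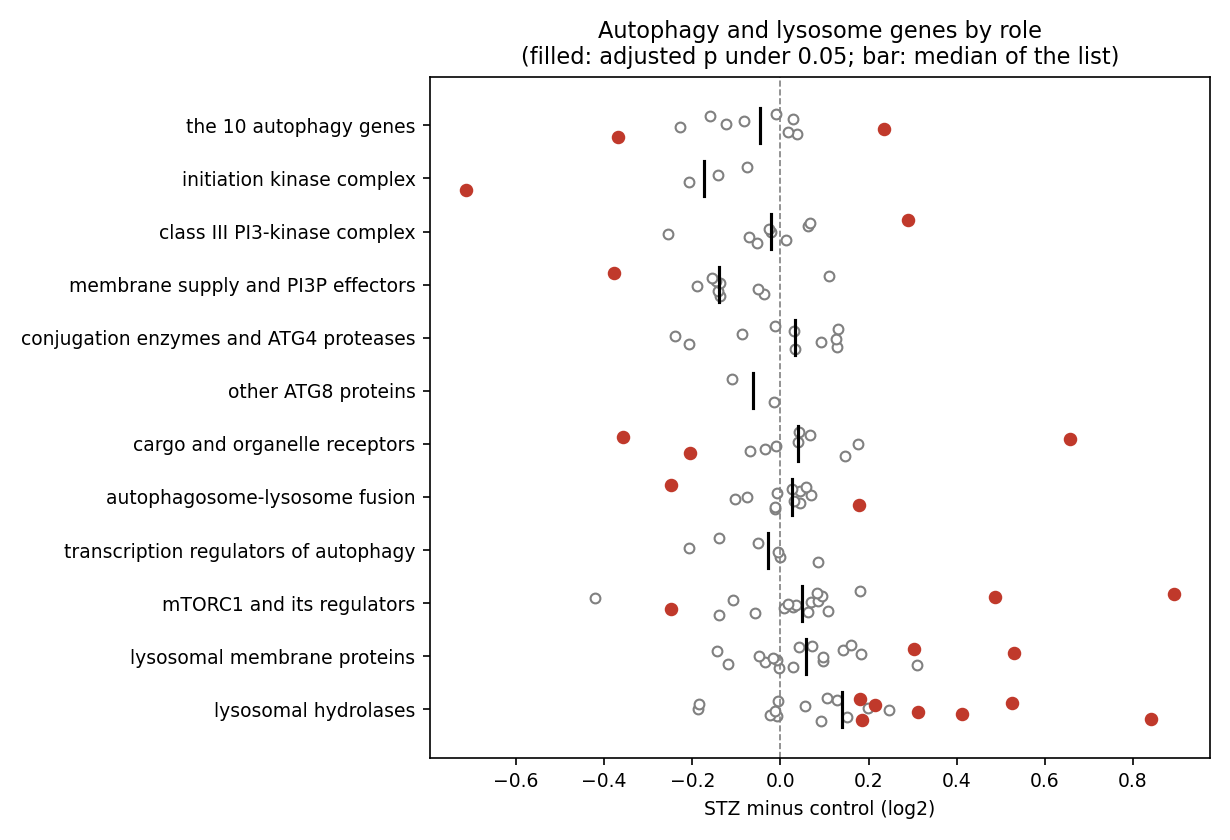
STZ minus control difference (log2, x axis) of each measured gene, by role, with filled points for an adjusted p under 0.05 and a bar at the median of the list. Of the lists outside the 10 autophagy genes, that of lysosomal hydrolases had the most filled points, 7 of 20 and all to the right. It also holds Psap and Npc2, and its share was 35.0%, beside 9.12% of all named genes. Conjugation enzymes, the other ATG8 genes and transcription regulators had none.

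Lysosomal genes were read as 2 lists, which were not tested against each other. The first holds membrane proteins and subunits of the proton pump that acidifies the lysosome. Of its 18 measured genes, 2 were higher and none lower (11.1%, beside 9.12% of all named genes). Both encode pump subunits of the sector on the cytosolic side, and no other gene of the list passed. Atp6v1b2 rose by 0.53 ± 0.067 (adjusted p = 0.000112, limma), with all 6 STZ livers above all 7 controls. Atp6v1e1 was higher by 0.30 ± 0.089 (adjusted p = 0.0412), and of the 13 arrays only STZ replicates 3 and 5 and control replicates 6 and 7 could be left out singly without losing the call. It did not pass in the exact rank-sum test (adjusted p = 0.211). The other list, called hydrolases here, also holds Psap and Npc2, which encode lysosomal proteins that are not hydrolases. Of its 20 measured genes, 7 were higher and none lower (35.0%, beside 9.12% of all named genes), at a median difference of 0.14. All 20 are brighter than the median gene. In the fit of the 9969 such genes alone, 9 of the 20 were higher and 1 was lower. Of all 9969, 1857 passed there. Psap was among the 7 (0.18 ± 0.052, adjusted p = 0.0382, limma). The cysteine protease Ctsc, which activates granule proteases of immune cells, rose by 0.84 ± 0.089 (1.79-fold, adjusted p = 2.04e-05). It lay at 10.00, 10.48 and 10.72 (lowest, median and highest) in STZ livers and at 9.47, 9.56 and 9.69 in control livers. The asparagine-specific protease Lgmn (0.53 ± 0.10, adjusted p = 0.00347), cathepsin L (Ctsl, 0.41 ± 0.091, 0.00838) and cathepsin Z (Ctsz, 0.31 ± 0.064, 0.00503) were next by size. In the exact rank-sum test 5 hydrolases were higher, Ctsc among them, while Lgmn, Ctsl and Ctsz did not pass (adjusted p = 0.0628 each). With the 4 STZ arrays of consecutive label numbers, 4 hydrolases were higher and 2 lower.

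Markers of Kupffer cells and other macrophages, which are rich in lysosomes, were read beside the hydrolases. Of the 10 marker genes 5 were higher in STZ livers and none lower, with a median difference of 0.40, and their part in the hydrolase result was not tested. Clec4f, which marks Kupffer cells, was higher by 0.31 ± 0.082 (adjusted p = 0.0257, limma). The summed linear intensity of the 10 markers was 5971 to 9758 in STZ livers and 5183 to 7364 in control livers, and that of the 20 hydrolases was 30317 to 34787 in STZ livers and 26888 to 29431 in control livers. STZ replicate 3 had the lowest sum of both lists among the STZ livers. STZ replicate 2 had the highest macrophage sum (9758) and a hydrolase sum of 32982. STZ replicate 1 had the highest hydrolase sum (34787) and a macrophage sum of 8876. Among the controls, replicate 2 had the lowest hydrolase sum (26888), with a macrophage sum of 6758 and the lowest Ctsl value (11.71). Replicate 6 had the highest hydrolase sum (29431), with a macrophage sum of 6207. The highest macrophage sum of the controls was that of replicate 3 (7364, hydrolases 28630). The lowest was that of replicate 4 (5183, hydrolases 28363). How the sums vary together within the groups was not tested. The number of macrophage markers called ranged from 1, without STZ replicate 6, to 8, without control replicate 3, and it was 2 without STZ replicate 1, STZ replicate 4 or control replicate 7, 3 without control replicate 1, 4 or 5, and 2 with the STZ arrays of consecutive label numbers.

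**Figure D5:**
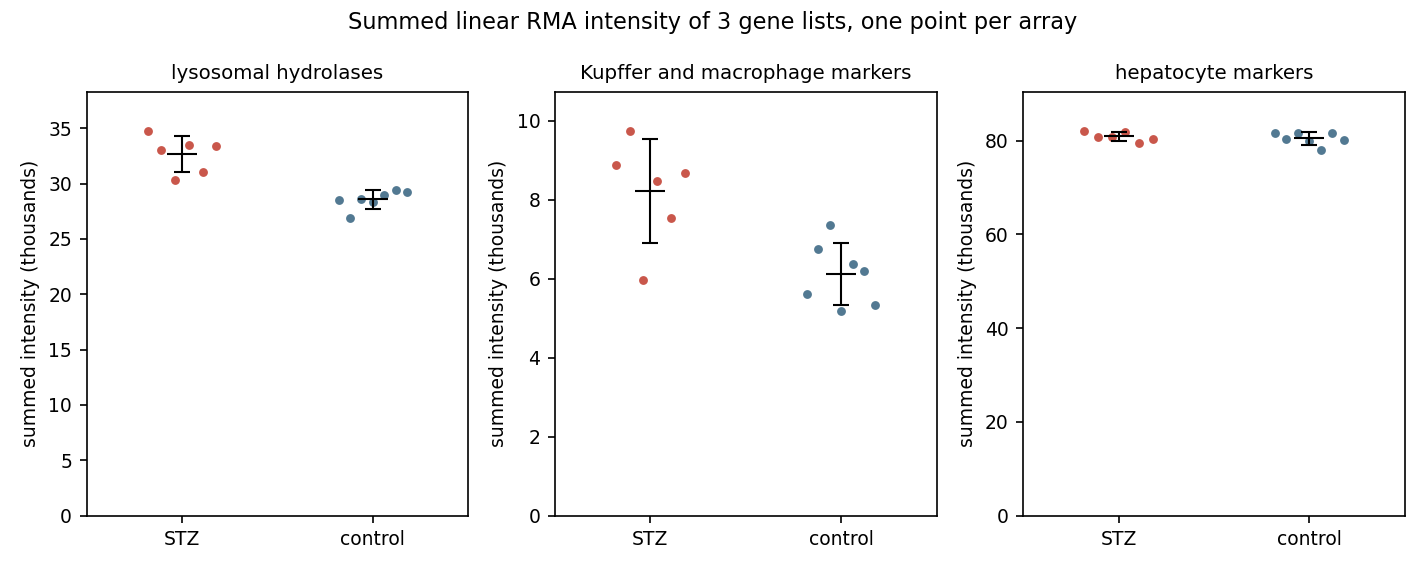
Summed linear RMA intensity (y axis, in kilo-units) of the lysosomal hydrolases, the macrophage markers and the hepatocyte markers in STZ livers (red, 6 arrays) and control livers (blue, 7 arrays), with the mean and SD. The hydrolase sums do not overlap between the groups, the macrophage sums overlap through STZ replicate 3, and the hepatocyte sums overlap.

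Other cell types were checked in the same way. The hepatocyte gene Alb (albumin) was bright on every array, at 13.64 ± 0.048 (SD, n = 6) in STZ livers and 13.67 ± 0.014 (SD, n = 7) in control livers, and of 9 hepatocyte markers 1 was higher and 2 lower. The higher one was Cps1 (0.16 ± 0.045, adjusted p = 0.0307, limma). The lower ones were Apoa1 (-0.23 ± 0.056, adjusted p = 0.0158) and Ttr (-0.18 ± 0.051, adjusted p = 0.0402). The summed hepatocyte markers were 79532 to 82166 in STZ livers and 78004 to 81668 in control livers. Of 8 endothelial markers 1 was higher (12.5%, beside 9.12% of all named genes). It was Lyve1 (0.50 ± 0.11, adjusted p = 0.00967, limma), and no endothelial marker was called in the exact rank-sum test. Stab2 lay at 9.17 to 9.53 in STZ livers and at 9.20 to 9.38 in control livers. Of 8 stellate cell markers 1 was higher (Dcn, 0.35 ± 0.063) and 1 lower (Lrat), which lay at 8.48 to 8.96 in STZ livers and 9.07 to 9.39 in control livers. None of 5 bile duct and 7 lymphocyte and neutrophil markers passed in limma or the rank-sum test, and 1 and 2 of them had an unadjusted p under 0.05. The bile duct gene Krt19 lay at 6.03 to 6.76 in STZ livers and 5.78 to 6.58 in control livers, and the T cell gene Cd3e at 6.65 to 7.06 in STZ livers and 6.75 to 7.01 in control livers. The neutrophil gene S100a8 lay at 4.53 to 4.93 in STZ livers and 4.46 to 4.62 in control livers, while the lower quartile over each whole array was 4.87 to 4.98.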

How the data were processed

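The values were deposited by the authors as log2 intensities of 35556 probe sets on 13 arrays, and the submitters' processing notes name RMA (robust multi-array average) and version 1.2 of Affymetrix Expression Console. Their annotation and genome build are not given here. No detection calls were used, so a dim gene is read as low signal. Precision is limited by the number of arrays.

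Probe sets with 1 gene symbol in the platform annotation (21789) were kept, those with several (1621) or not listed (12146) were not, and the probe set with the highest mean was taken for each gene. STZ was compared with control in limma 3.58.1 (R 4.3.3), with lmFit and eBayes, 11 residual degrees of freedom before moderation and Benjamini-Hochberg adjustment over 19938 genes. The fit was tested on simulated arrays. Exact permutation used all 1716 splits, with a smallest p of 0.000583. Groups and replicates follow the sample titles, which name biological replicates.

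The named genes were all 10 members, and in each other pathway list up to 4 passing genes with the largest difference, or the gene with the smallest p. Each marker list has its defining genes named. Vmp1, Dcn, Lyve1, Cps1, Apoa1 and Ttr were named after their values were seen. The members and lists were chosen with earlier results of these data known. Same-numbered arrays were not treated as pairs, since the correlation of their deviations from the group means was between -0.09 and 0.19.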

Additional observations from a re-analysis of the deposited data

Results flagged for a closer look

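Among the 30 genes named with values from the pathway lists and the 10 autophagy genes, 3 single arrays stood far from the rest of their group, among 60 groups of values examined. Chance flags about 1 in 20 such groups. Becn1 was 8.41 in control replicate 2, while the other 6 controls lay between 8.87 and 8.99, and without that array the difference was -0.15 with an adjusted p of 0.124 in limma. Ctsl was 11.71 in the same control, against 11.97 to 12.13 in the other controls. Lamp2 was 12.26 in control replicate 1, against 12.29 to 12.31 in the other controls, a small distance that stood out because those values are so close together.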

How the results depend on the processing

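Map1lc3a kept its direction and its call in all 11 alternatives and in all 13 fits that left out an array, and Sqstm1 in 9 of 11 alternatives and in all 13 such fits. The members called were 0 higher with the replicate block and 0 higher with the STZ arrays of consecutive label numbers, where 2 were lower. The replicate block rests only on equal numbers in the titles, which do not pair the mice, and Sqstm1 had 0.24 and an adjusted p of 0.0577 there in limma. Of the other autophagy and lysosome genes, 3 were lower with the block and 10 with consecutive label numbers. Over all named genes, 1819 passed in limma, 1088 in the exact rank-sum test and 1256 with the block. Calls of Calcoco1, Vps41, Vamp8 and Deptor were lost with the block (adjusted p = 0.101, 0.0780, 0.0785 and 0.0788). Hydrolases called higher were 7 as reported, 5 in the rank-sum test and 4 with the block, and macrophage markers 5, and 0 with the block or in the rank-sum test. Gabarapl1 changed sign with consecutive label numbers (-0.0296) and Bnip3 with array quality weights (-0.0318). In the fits that left out an array the differences spanned 0 for Map1lc3b (-0.00366 to 0.0653), Gabarapl1 (-0.0354 to 0.0600), Bnip3 (-0.10 to 0.10) and Lamp2 (-0.0433 to 0.0173), the members called stayed at 1 higher and 1 lower, and the other genes called were 11 to 15 higher and 4 to 11 lower. The median difference of the members lay between -0.086 and -0.033 in those fits and between -0.057 and -0.043 in 5 alternatives. The cause of these changes was not tested. The probe set among neighbours on the gene's own chromosome was chosen as an alternative after seeing the data.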

Other observations

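Control replicates 3, 4 and 5 had the lowest values of 4 of the 10 autophagy genes within their group, a pattern noticed after the values were seen and not tested. Bnip3 was 10.36 to 10.70 in these 3 controls and 11.04 to 11.06 in the other 4. Tfeb was 7.38 to 7.44 in these 3 controls and 7.55 to 7.73 in the other 4. Ulk1 was at most 9.07 in these 3 controls and at least 9.20 in the other 4. Map1lc3b was 10.62 to 10.64 in these 3 controls and 10.73 to 10.90 in the other 4. For Sqstm1 the same 3 controls were the highest of their group, at 11.88 to 11.97, while the other 4 lay between 11.67 and 11.84. For Lamp2 they were also the highest, by a margin of the third decimal (12.294 to 12.306, against at most 12.293 in the other 4). The labels used here give no batch, cage or feeding state that would set these animals apart.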
